A study of Mus musculus with 16 samples.

Results

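The genes described here are the mouse interleukins and interleukin receptors, the protein-coding genes of the mm10 RefSeq table whose symbol is Il followed by a digit. They number 83 of 21900 protein-coding genes, and 59 of them had at least 1 ATAC-seq peak. Each peak went to the gene with the closest span, measured from the peak's middle and at most 50 kb off, which put 327 of 82188 peaks at these genes, and the summed counts of a gene's peaks are called its locus. The libraries came from spleens of C57BL/6 mice aged 8 to 10 weeks and fell into 4 groups of 4: Smarca4+/- (HET) cells labelled CC, Smarca4+/+ (WT) cells labelled CC, HET cells labelled CB and WT cells labelled CB. CC and CB are read as centrocyte and centroblast, the light zone and dark zone B cells of the germinal center; the sample labels spell out neither abbreviation and give no sort gate, no driver of the allele and no immunisation. The series text speaks of a Smarca4 knockout, while every HET label reads Smarca4+/-. Smarca4 encodes BRG1, the ATPase of the BAF chromatin remodelling complex, and the study compared accessibility in germinal center B cells with 1 copy less of it. Chromatin was opened to the Tn5 transposase by the Omni-ATAC protocol, so the values measure accessible DNA around a gene and not its transcript. Whether replicates came from separate animals is not stated, so the p-values measure the spread between these libraries, which may be technical.

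Interleukins are secreted proteins through which immune cells instruct each other, and each one signals through a receptor built of a private chain and, in most families, a chain that several interleukins share. Receptors of the common gamma chain, IL-6, IL-12 and IL-10 families pass the signal to JAK kinases and STAT factors, while IL-1 and IL-18 receptors use MYD88 and IRAK kinases. In germinal centers, IL-21 and IL-4 from follicular helper T cells act on B cells through IL-21R and IL-4Rα, and B cells themselves can secrete IL-10 and IL-6. IL-7R, IL-12Rβ2, the IL-18 receptor chains and IL-23R are best known from T cells, NK cells and innate lymphocytes.

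Total counts ranged from 5310327 to 7474760 in HET CC, 3494356 to 3750936 in WT CC, 38716281 to 51011923 in HET CB and 31696941 to 38798802 in WT CB. Every CC library was thus shallower than every CB library, so that depth and cell label cannot be told apart. Thinning all libraries to 1 total, an alternative given at the end, evens the count totals and nothing else. Interleukin peaks took 0.321 to 0.338% of the counts of each of the 16 libraries. The 4 B cell loci Ms4a1, Cd79a, Cd79b and Pax5 were open in all libraries, at 597.9 to 653.2 CPM in sum in HET CC, 614.1 to 728.5 in WT CC, 703.8 to 712.5 in HET CB and 731.4 to 776.2 in WT CB, where CPM are counts scaled to a common library total after TMM. The 5 germinal center loci, among them Bcl6 and S1pr2, summed to 643.6 to 725.8 CPM in HET CC and 568.7 to 663.0 in WT CC, against 877.2 to 904.8 in HET CB and 905.1 to 944.3 in WT CB. From CB to CC, S1pr2 changed by -0.91 in HET and -1.57 in WT on the log2 scale, but Bcl6 by 0.16 in HET and 0.06 in WT. The 9 peaks of Smarca4 itself summed to 139.9 to 164.8 CPM in HET CC and 152.9 to 184.7 in WT CC, and to 174.9 to 180.2 in HET CB and 183.2 to 196.2 in WT CB, a genotype difference that passed in neither cell label (adjusted p = 0.375 in CC and 0.413 in CB); where the allele is disrupted is not stated, so these peaks check nothing. A locus or peak is called higher or lower when its adjusted p, from edgeR's quasi-likelihood test with Benjamini-Hochberg adjustment over all loci or all peaks, lies below 0.05, and each log2 change carries the standard error (SE) of that fit.

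Of the 37 ligand genes, 23 had a peak, and of the 40 receptor genes, 32 did. The 2 enzyme genes, Il4i1 and Il4i1b, both had peaks, as did 2 of the 4 inhibitors. No peak was assigned to Il2, Il21, Il17a, Il17f or Il22, ligands made chiefly by activated T cells, nor to Il17ra, Il12rb1 or the IL-33 receptor gene Il1rl1. Absence of an assigned peak does not show closed chromatin, because a peak nearby can lie closer to another gene. A member with a peak had a median of 4, against 3 over all genes with a peak, and Il21r had the most with 17. Of the 59 members, 11 with 70 of the 327 peaks had no RefSeq start in the table used. At the others, 42% of the 257 peaks lay outside the gene span and over 1 kb from a start, against 27.9% of the peaks at all genes with a start, and 14.4% lay within 1 kb of a start, against 24.5%.

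Which interleukin loci differ between CC and CB cells was asked first, in each genotype. In HET, 27 loci were higher and 17 lower in CC than in CB, 74.6% of the 59, with 62.8% of all loci called, 31.1% higher and 31.7% lower. In WT, 28 were higher and 18 lower, 78% of the 59, with 63.3% of all loci called, 31.6% higher and 31.7% lower. Read against those backgrounds, the share of interleukin loci called stood somewhat above that of all loci, while at single peaks it did not: in HET CC 111 of the 327 peaks were higher and 72 lower, 56% with 58.8% of all peaks called (30.8% higher and 28.1% lower), and in WT CC 109 were higher and 73 lower, 55.7% with 57.9% of all peaks called (30.2% higher and 27.7% lower). The median locus changed by 0.16 on the log2 scale in HET and by 0.13 in WT, against 0.00 and -0.01 over all loci. The genotypes gave like calls at most loci: 24 were higher in both, 17 lower in both, 10 called in neither and 0 called in opposite directions. The range was wide, from -0.97 to 3.02 in HET and from -1.19 to 2.86 in WT.

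**Figure D1:**
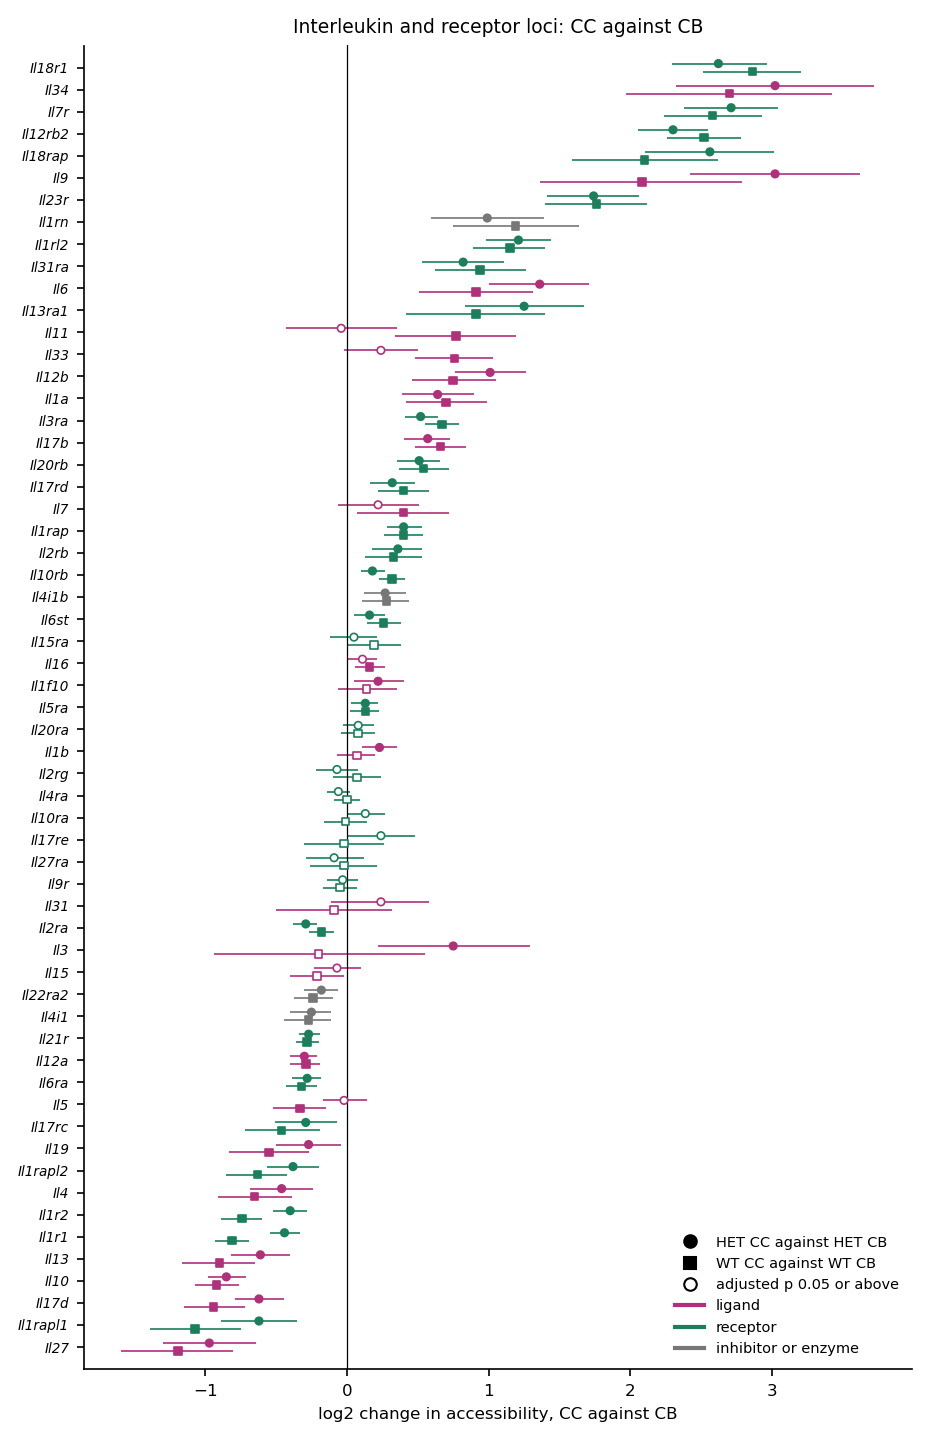
The log2 change of the 59 interleukin loci in CC against CB, with circles for HET and squares for WT, bars for 95% intervals, filled symbols for loci called and colours for ligands, receptors and the other members. Il18r1, Il34, Il7r, Il12rb2, Il18rap, Il9 and Il23r stand apart at the top, at 1.74 or more in both genotypes, and Il27 stands at the bottom, at -0.97 in HET and -1.19 in WT.

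Calls were also counted by the level in CB. That level enters the change itself, so these counts do not test a link between level and direction. Among the 17 members with a mean CB level below 10 CPM, 13 were higher and 1 lower in HET CC, and 14 were higher and 1 lower in WT CC. All loci of that level were higher in 50% of cases in HET CC and in 43.7% in WT CC, and lower in 8.45% and 9.93%. Among the 31 members between 10 and 100 CPM, 12 were higher and 10 lower in HET CC, and 11 were higher and 11 lower in WT CC. Of all loci between these levels, 26.5% were higher and 34.6% lower in HET CC, and 28.3% and 34.5% in WT CC. Of the 11 members above 100 CPM, 2 were higher and 6 lower in HET CC, and 3 were higher and 6 lower in WT CC. All loci above that level were lower in 46.2% of cases in HET CC and in 45.1% in WT CC, and higher in 25.8% and 29.2%.

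Of the 32 receptor loci, 16 were higher and 8 lower in CC in each genotype. Over all loci, 31.1% were higher and 31.7% lower in HET, and 31.6% and 31.7% in WT. The steepest receptor gains lay at Il18r1, Il7r, Il12rb2 and Il18rap. Il7r, a chain of the IL-7 receptor that supports lymphocyte survival and B cell precursors, had 36.9, 25.6, 27.5 and 18.5 CPM in HET CC and 28.1, 44.6, 34.6 and 34.0 CPM in WT CC, against 5.03, 3.48, 4.96 and 3.12 CPM in HET CB and 4.95, 6.27, 5.88 and 6.49 CPM in WT CB. All 8 CC libraries stood above all 8 CB libraries. The rise was 6.54-fold in HET (log2 2.71, SE 0.170, adjusted p = 6.9e-16) and 5.99-fold in WT (log2 2.58, SE 0.176, adjusted p = 5.6e-15), and each of the 5 Il7r peaks was higher in both genotypes.

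Il12rb2, the chain that makes T and NK cells responsive to IL-12, had 29.5, 26.0, 37.5 and 27.8 CPM in HET CC and 41.0, 40.1, 36.4 and 46.0 CPM in WT CC, against 6.93, 5.95, 6.37 and 5.2 CPM in HET CB and 6.62, 8.4, 5.99 and 7.59 CPM in WT CB. No CC library overlapped a CB library. It rose 4.92-fold in HET (log2 2.30, SE 0.128) and 5.74-fold in WT (log2 2.52, SE 0.134), with 6 of its 7 peaks higher in HET and 7 of 7 in WT. Il23r, the IL-23 receptor chain, lies 46.6 kb from Il12rb2 on chromosome 6 and also rose in both genotypes, by 1.74 on the log2 scale in HET (SE 0.165) and 1.76 in WT (SE 0.183). Its levels were 10.4 to 20.2 CPM in HET CC and 14.7 to 19.3 in WT CC, against 3.6 to 5.50 in HET CB and 4.37 to 5.48 in WT CB, again without overlap.

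Il18r1, the IL-18 binding chain, had 28.5, 24.5, 25.7 and 18 CPM in HET CC and 36.7, 39.8, 22.9 and 40.3 CPM in WT CC, against 4.54, 3.30, 4.23 and 3.6 CPM in HET CB and 4.78, 4.93, 3.35 and 6.28 CPM in WT CB. Groups of CC and CB did not overlap, and the rise was 6.17-fold in HET (log2 2.62, SE 0.170) and 7.24-fold in WT (log2 2.86, SE 0.175). Il18rap, the accessory chain of the same receptor, rose by 2.56 in HET (SE 0.232) and 2.10 in WT (SE 0.261) on the log2 scale.

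Loci that mark other cell types were also mostly higher in CC, apart from those of plasma cells. The share over all loci was 31.1% higher and 31.7% lower in HET CC, and 31.6% and 31.7% in WT CC. Of the 11 T cell marker loci with a peak, 9 were higher and 1 lower in HET CC, and 9 were higher and 2 lower in WT CC, and their summed level was 435.3 to 515.1 CPM in HET CC and 500.7 to 622.2 in WT CC, against 292.2 to 302.5 in HET CB and 311.0 to 315.6 in WT CB. Cd3e averaged 8.69 CPM in HET CC and 9.62 in WT CC, against 2.08 in HET CB and 2.45 in WT CB. The lower ones were Cd247, with log2 changes of -0.21 in HET and -0.18 in WT, and in WT also Cd4, with -0.74. In HET, Cd4 had -0.18 and did not pass. Of the 6 NK cell marker loci, 4 were higher and 0 lower in HET CC, and 3 were higher and 0 lower in WT CC, with sums of 253.9 to 258.3 CPM in HET CC and 259.6 to 299.6 in WT CC, against 223.5 to 231.7 in HET CB and 216.7 to 230.5 in WT CB. Of the 7 myeloid marker loci, 5 were higher and 1 lower in HET CC, and 6 were higher and 1 lower in WT CC. Their sums were 309.1 to 354.4 CPM in HET CC and 330.0 to 348.6 in WT CC, against 213.7 to 220.2 in HET CB and 228.5 to 236.8 in WT CB. Of the 5 loci of naive or memory B cells with a peak, 4 were higher and 0 lower in HET CC, and 3 were higher and 0 lower in WT CC, with sums of 628.5 to 687.9 CPM in HET CC and 723.6 to 799.6 in WT CC, against 492.9 to 509.4 in HET CB and 517.0 to 537.0 in WT CB. Of the 4 plasma cell loci, 1 was higher and 2 lower in HET CC, and 2 were higher and 2 lower in WT CC. None of these marker loci was at 0 in any library. In bulk libraries, more cells of another type and more open chromatin per cell cannot be told apart, and the part of these cells in the interleukin results was not tested.

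**Figure D2:**
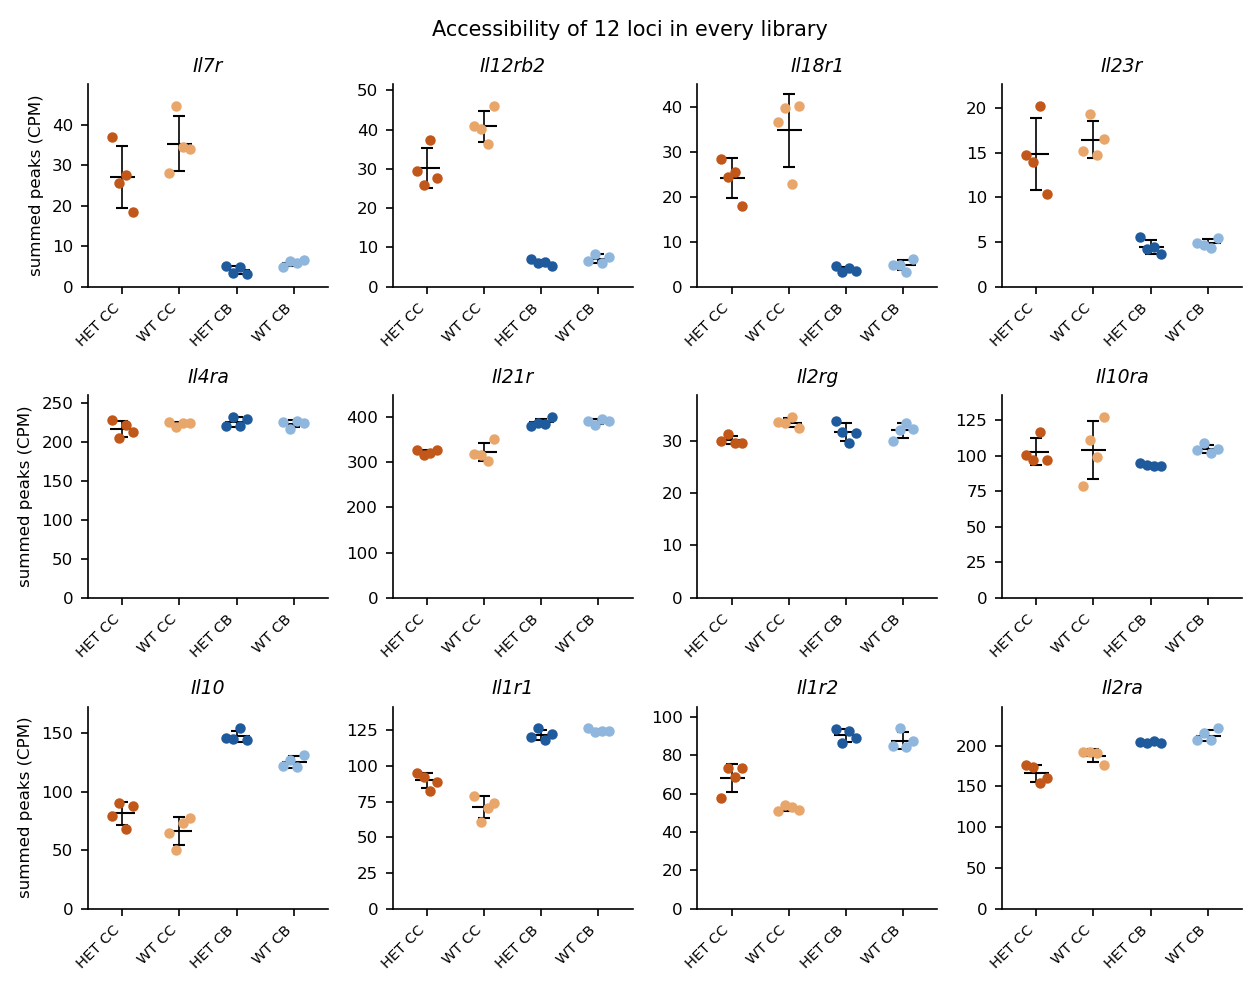
Level of 12 interleukin loci, in CPM of the summed peaks, in each library of HET CC, WT CC, HET CB and WT CB, with a bar for the mean and whiskers for the SD over 4 libraries. The upper row shows Il7r, Il12rb2, Il18r1 and Il23r far above CB in both CC groups, the middle row shows Il4ra, Il2rg and Il10ra at like levels with Il21r lower in CC, and in the lower row Il10, Il1r1, Il1r2 and Il2ra are lower in CC.

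The IL-1 receptor genes lie side by side on chromosome 1 and split into a lower and a higher stretch. Il1r1, the signalling receptor for IL-1, had 95.4, 92.5, 82.6 and 89.1 CPM in HET CC and 78.6, 60.9, 70.8 and 74.3 CPM in WT CC, against 120.1, 126.5, 118.3 and 122.3 CPM in HET CB and 126.3, 123.9, 124.7 and 124.3 CPM in WT CB. Its CC and CB libraries did not overlap, and it fell by 0.44 on the log2 scale in HET (SE 0.0538, adjusted p = 7.41e-09) and by 0.81 in WT (SE 0.0624, adjusted p = 5.32e-14). Il1r2, a decoy receptor that binds IL-1 without signalling, fell by 0.40 in HET (SE 0.062) and by 0.74 in WT (SE 0.0736); with only peaks inside its span the HET call was lost (adjusted p = 0.443). Il1rl2, the IL-36 receptor gene, starts 8.39 kb beyond Il1r1 and rose by 1.21 in HET (SE 0.116) and 1.15 in WT (SE 0.129). Of the 6 Il1rl2 peaks, 6 were higher in HET and 4 in WT, and the next genes with peaks are Il18r1 and Il18rap, whose 8 peaks were all higher in both genotypes. On chromosome X, Il1rapl1 had log2 changes of -0.62 in HET and -1.07 in WT. Il1rapl2, also on chromosome X, had -0.38 in HET and -0.63 in WT, and both loci were called lower in both genotypes.

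The change of direction did not fall exactly between genes. Of the 10 Il1r1 peaks, 5 were lower and 2 higher in each genotype. One of the higher ones, chr1:40224699-40225199, sits 131 bases from an upstream Il1r1 start and had 3.10, 5.94, 4.72 and 3.72 CPM in HET CC and 5.84, 3.24, 5.07 and 6.57 CPM in WT CC, against 1.08, 1.35, 0.861 and 1.01 CPM in HET CB and 1.51, 1.51, 1.02 and 1.41 CPM in WT CB. It rose by 2.03 in HET and 1.93 in WT on the log2 scale. Across all interleukin genes, 25 neighbouring pairs lay within 100 kb of each other, and 15 of these had a peak at both members. In HET 10 pairs had both members called, 8 of them (80%) in the same direction, and in WT 9 did, 7 of them (77.8%) in the same direction. Over all neighbouring protein-coding genes with both called, that share was 69.1% in HET and 68.6% in WT. Neighbours share a stretch of chromatin, so they are not separate observations.

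**Figure D3:**
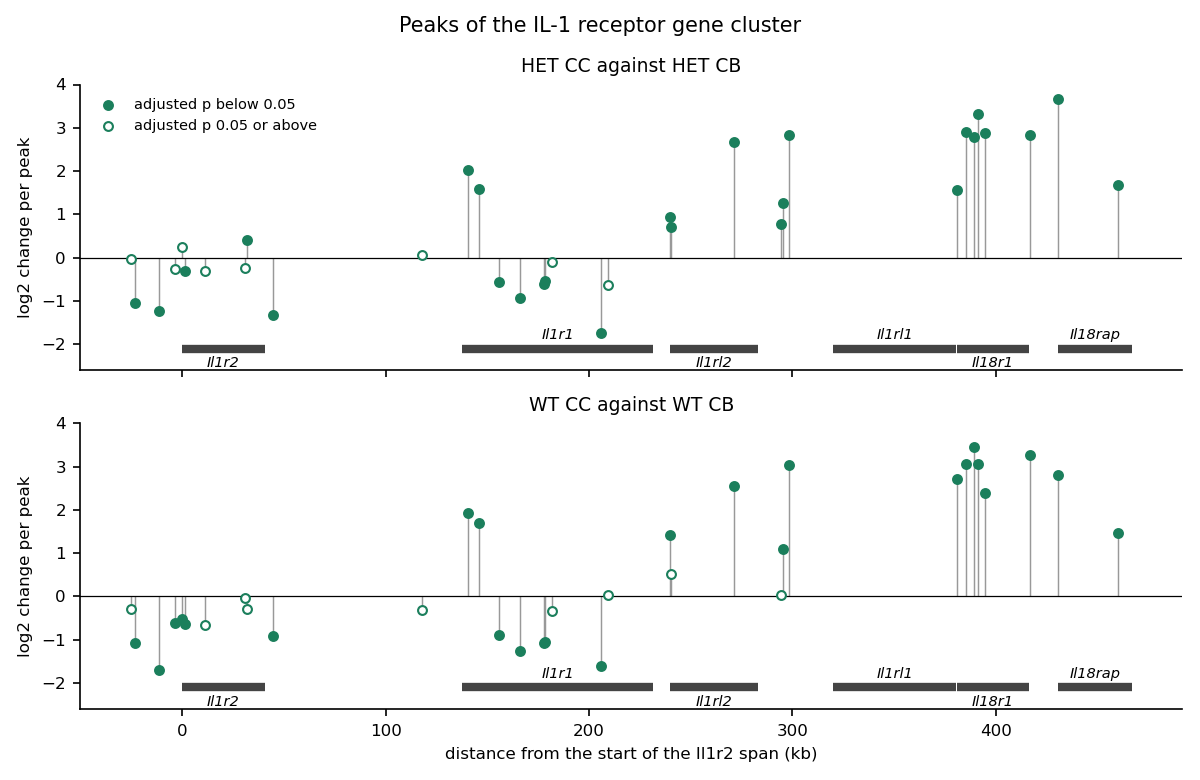
The log2 change of every peak assigned to the IL-1 receptor gene cluster, HET CC against HET CB above and WT CC against WT CB below, by distance in kb from the start of the Il1r2 span, with gene spans as bars. Most called peaks of Il1r2 and Il1r1 lie below 0, and the peaks of Il1rl2, Il18r1 and Il18rap lie above 0.

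Of the receptors for the T cell cytokines IL-21 and IL-4, the first fell in CC and the other did not pass the test. Il21r, the IL-21 receptor, had 326.6, 316.9, 319.9 and 328.5 CPM in HET CC and 319.2, 317.2, 303.0 and 350.9 CPM in WT CC, against 381.7, 388.5, 385.2 and 400.4 CPM in HET CB and 391.2, 383.2, 396.5 and 392.1 CPM in WT CB. The groups did not overlap between CC and CB, and the locus fell by 0.27 in HET (SE 0.0383, adjusted p = 1.43e-07) and by 0.28 in WT (SE 0.0402, adjusted p = 1.96e-07). Il4ra, the IL-4 receptor chain encoded 23.8 kb away, averaged 216.4 ± 10.4 CPM in HET CC and 223.1 ± 2.67 in WT CC, against 225.5 ± 5.98 in HET CB and 223.2 ± 4.78 in WT CB (SD, n = 4 libraries each). Its log2 change was -0.06 in HET, with a 95% interval from -0.14 to 0.02, and 0.00 in WT, from -0.09 to 0.09, so neither passed the test and the intervals leave out changes like those of Il21r. Il2rg, the common gamma chain, Il10ra, Il9r and Il27ra likewise passed in neither genotype. Counting only peaks inside the gene span, Il21r in WT no longer passed (adjusted p = 0.632), while Il4ra rose by 0.32 in WT and Il10ra by 0.65 in HET and 0.79 in WT.

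Among the other receptors listed for B cells, Il6ra, the IL-6 binding chain, fell by 0.28 in HET (SE 0.0519) and by 0.32 in WT (SE 0.0565), whereas Il6st, the signalling chain of the IL-6 family, rose by 0.16 in HET (SE 0.0563, adjusted p = 0.014) and by 0.26 in WT (SE 0.0604). Without HET CC replicate 1 the rise of Il6st in HET no longer passed (adjusted p = 0.163). Il2ra, the high-affinity IL-2 receptor chain, fell by 0.29 in HET (SE 0.0449) and by 0.18 in WT (SE 0.0476). Il3ra, the IL-3 receptor chain, rose by 0.52 in HET (SE 0.0593) and 0.67 in WT (SE 0.0634). Its libraries held 126.4 to 138.0 CPM in HET CC and 127.1 to 175.9 in WT CC, against 91.5 to 94.0 in HET CB and 91.8 to 101.3 in WT CB, without overlap. Il2rb, shared by the IL-2 and IL-15 receptors, rose by 0.36 in HET and 0.33 in WT, and the WT call was lost without WT CC replicate 2. Il5ra, the IL-5 receptor chain, rose by 0.13 in each genotype (adjusted p = 0.0202 in HET and 0.0329 in WT), a call that was lost in WT without WT CB replicate 1, WT CB replicate 2 or WT CC replicate 1, in HET without HET CB replicate 2, and in both on thinned counts (adjusted p = 0.258 in HET and 0.0776 in WT). Il10rb rose by 0.18 in HET and 0.32 in WT, Il13ra1 rose by 1.25 in HET and 0.91 in WT, and Il15ra did not pass in either. With peaks inside the gene span or within 10 kb, Il10rb passed in neither genotype (adjusted p = 0.55 to 0.614 in HET and 0.148 to 0.354 in WT) and Il13ra1 not in HET (0.0561 to 0.0724), and Il15ra passed in WT with peaks inside its span (0.0188). With only peaks inside the gene span, Il2ra had 0.02 in WT and Il10rb -0.04 in HET, opposite in sign to the values over 50 kb, and Il2rb and Il5ra passed in neither genotype.

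Of the 23 ligand loci, 9 were higher and 7 lower in HET CC, and 10 were higher and 8 lower in WT CC. Over all loci, 31.1% were higher and 31.7% lower in HET CC, and 31.6% and 31.7% in WT CC. Il10, the anti-inflammatory cytokine that regulatory B cells can secrete, had 79.3, 90.3, 67.9 and 87.5 CPM in HET CC and 64.8, 49.7, 73.1 and 77.2 CPM in WT CC, against 145.6, 144.6, 154.1 and 143.9 CPM in HET CB and 121.7, 127.3, 121.0 and 131.1 CPM in WT CB. CC and CB did not overlap, and Il10 fell by 0.85 in HET (SE 0.0686, adjusted p = 2.74e-13) and by 0.92 in WT (SE 0.080, adjusted p = 1.58e-12). Of its 9 peaks, 8 were lower and 1 higher in each genotype. The steepest of these lay 16342 bases outside the gene, at chr1:131003253-131003753, and fell by 1.65 in HET and by 1.36 in WT. Il19, a relative of Il10 encoded 74.4 kb away, fell by 0.27 in HET and by 0.55 in WT.

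The type 2 cytokine genes Il13 and Il4 on chromosome 11 were lower in CC too. Il13 fell by 0.61 in HET (SE 0.109) and by 0.90 in WT (SE 0.131), and Il4 fell by 0.46 in HET (SE 0.113) and by 0.65 in WT (SE 0.133). Il5, next in the row, fell in WT by 0.33 (SE 0.093) but did not pass in HET, where its change was -0.02. Il27, the private chain of IL-27, Il12a, a chain of IL-12 and IL-35, and Il17d were lower in both genotypes. Their log2 changes were -0.97, -0.30 and -0.62 in HET and -1.19, -0.29 and -0.94 in WT. With only peaks inside the gene span, Il4 passed in neither genotype, nor did Il12a, which had -0.10 in HET and 0.03 in WT.

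Among the ligands that rose were Il6, which acts on T cells and plasma cells, by 1.36 in HET (SE 0.18) and 0.91 in WT (SE 0.205), and Il12b, the chain that IL-12 and IL-23 share, by 1.01 in HET (SE 0.126) and 0.75 in WT (SE 0.148). The HET call of Il12b was lost with only peaks inside the span (adjusted p = 0.0982), and its gain came mainly from 1 peak 83 bases outside the gene span, chr11:44414510-44415010, at 4.30, 4.49, 6.80 and 3.57 CPM in HET CC and 3.33, 6.18, 5.64 and 4.10 CPM in WT CC, against 0.282, 0.232, 0.243 and 0.194 CPM in HET CB and 0.132, 0.345, 0.178 and 0.499 CPM in WT CB. It rose by 4.30 in HET and 4.05 in WT on the log2 scale. Il9 and Il34 each rest on 1 peak of a few CPM and rose: Il9 by 3.02 in HET and 2.08 in WT, Il34 by 3.02 in HET and 2.70 in WT. Il17b rose by 0.57 in HET and 0.66 in WT. With peaks within 10 kb, Il17b had -0.21 in WT and did not pass (adjusted p = 0.505). Il15, the cytokine of memory T and NK cells, passed in neither genotype as a whole, with -0.07 in HET and -0.21 in WT (adjusted p = 0.489 and 0.0627). In 4 of 8 fits that left out 1 WT library it passed in WT (adjusted p = 0.0124 to 0.0487), those without replicate 1 or 3 of CB and without replicate 3 or 4 of CC. Il16, a T cell attractant, passed in WT with 0.16 and not in HET with 0.11, where it passed without HET CC replicate 4.

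Of the 15 loci not called in HET, 8 had at least 1 called peak, 53.3% against 54% of all loci not called, and of the 13 not called in WT, 7 did, 53.8% against 52.4%. The interleukins thus lay near the background. Il4ra is an example: a peak inside the gene, chr7:125561189-125561689, 9168 bases from its start, had 7.05, 4.49, 9.25 and 4.19 CPM in HET CC and 10.8, 11.2, 8.17 and 11.5 CPM in WT CC, against 1.92, 1.83, 2.03 and 1.42 CPM in HET CB and 2.30, 1.25, 1.78 and 2.61 CPM in WT CB. That peak rose by 1.76 in HET and 2.38 in WT. Another, 3371 bases past the gene at chr7:125582595-125583095, fell by 0.45 in HET and by 1.19 in WT.

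The same held at Il15, where a peak inside the gene rose by 2.54 in HET and 2.28 in WT while one 36100 bases outside it fell by 1.20 in HET and by 1.87 in WT. At Il6ra the peaks ran from -1.13 to 1.90 in HET and from -1.86 to 2.53 in WT. Of the 52 members with 2 or more peaks, 15 had peaks called in both directions in HET and 17 in WT, 28.8% and 32.7%. Over all such loci the shares were 32.6% in HET and 31.9% in WT, close to those of the interleukins.

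The transcription starts were looked at where RefSeq gives a start window of 300 bases, most of it upstream, and the window lay under a peak, which was so for 24 members. Windows of 4 receptor genes whose start peak rose in CC and of 2 whose start peak did not pass are shown. They serve to compare base composition and motifs, a choice made after their values were seen. Of the latter 2, Il6st rose as a whole locus in both genotypes. All are on the GRCm38.p6 assembly, which mm10 denotes, and read 5′ to 3′ on the gene's strand. The windows are chr15:9529827-9530126 on the minus strand for Il7r, chr6:67376139-67376438 on the minus strand for Il12rb2, chr1:40515112-40515411 on the plus strand for Il18rap, chr1:40465302-40465601 on the plus strand for Il18r1, chr7:125552021-125552320 on the plus strand for Il4ra and chr13:112463820-112464119 on the plus strand for Il6st. Capitals mark matches, on either strand, to AGGAAG (core of ETS factors), TGTGGT (RUNX), TGANTCA (AP-1), GGGCGG (GC box) and TTCNNNGAA (STAT), where N is any base.
Il7r: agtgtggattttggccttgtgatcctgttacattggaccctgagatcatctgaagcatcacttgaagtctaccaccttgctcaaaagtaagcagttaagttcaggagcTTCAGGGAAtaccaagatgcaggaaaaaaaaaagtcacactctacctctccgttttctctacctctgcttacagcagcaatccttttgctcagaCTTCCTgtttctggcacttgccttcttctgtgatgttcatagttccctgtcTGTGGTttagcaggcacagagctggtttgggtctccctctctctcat
Il12rb2: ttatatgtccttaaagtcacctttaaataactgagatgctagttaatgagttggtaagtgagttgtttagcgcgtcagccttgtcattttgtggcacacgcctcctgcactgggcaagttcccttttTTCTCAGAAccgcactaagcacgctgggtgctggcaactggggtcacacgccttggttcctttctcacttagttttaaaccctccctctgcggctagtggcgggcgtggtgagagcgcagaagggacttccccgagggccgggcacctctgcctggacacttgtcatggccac
Il18rap: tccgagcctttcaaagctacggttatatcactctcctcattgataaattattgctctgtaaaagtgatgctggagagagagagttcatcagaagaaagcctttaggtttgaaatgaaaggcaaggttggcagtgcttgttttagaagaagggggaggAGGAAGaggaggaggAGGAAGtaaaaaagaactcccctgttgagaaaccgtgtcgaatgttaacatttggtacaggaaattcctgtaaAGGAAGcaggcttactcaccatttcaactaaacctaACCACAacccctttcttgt
Il18r1: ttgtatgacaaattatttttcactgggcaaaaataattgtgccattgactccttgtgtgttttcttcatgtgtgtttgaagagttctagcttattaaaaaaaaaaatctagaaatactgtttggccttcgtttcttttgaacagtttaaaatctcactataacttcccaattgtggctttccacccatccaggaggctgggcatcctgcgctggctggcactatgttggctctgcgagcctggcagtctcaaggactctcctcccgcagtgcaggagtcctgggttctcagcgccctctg
Il4ra: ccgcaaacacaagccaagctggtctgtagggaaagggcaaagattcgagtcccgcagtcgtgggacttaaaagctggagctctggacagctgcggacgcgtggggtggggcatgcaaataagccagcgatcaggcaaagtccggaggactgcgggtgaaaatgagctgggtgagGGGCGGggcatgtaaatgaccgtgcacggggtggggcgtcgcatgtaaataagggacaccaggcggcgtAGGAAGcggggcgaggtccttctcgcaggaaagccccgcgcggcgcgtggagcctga
Il6st: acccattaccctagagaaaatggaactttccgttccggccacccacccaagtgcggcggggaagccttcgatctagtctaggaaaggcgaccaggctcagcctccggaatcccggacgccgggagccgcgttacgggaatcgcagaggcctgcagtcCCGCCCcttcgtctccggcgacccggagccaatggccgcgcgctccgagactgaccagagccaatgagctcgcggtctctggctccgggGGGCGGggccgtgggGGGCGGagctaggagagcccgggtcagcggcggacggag

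The start peaks of the first 4 windows rose in CC, by 2.60 in HET and 2.44 in WT at Il7r, 2.81 in HET and 3.23 in WT at Il12rb2, 3.66 in HET and 2.81 in WT at Il18rap, and 1.57 in HET and 2.71 in WT at Il18r1. Those at Il4ra (-0.03 in HET and 0.18 in WT) and Il6st (0.05 in HET and 0.10 in WT) did not pass. CpG dinucleotides numbered 1 in the Il7r window, 12 in Il12rb2, 4 in Il18rap and 5 in Il18r1, against 25 in Il4ra and 33 in Il6st. Where a member had several windows, the one nearest the middle of its peak was counted, which at Il1r1 and Il15ra leaves out another start peak that was higher in WT CC. Over the 24 members, the 12 whose start peak was higher in WT CC had a median of 4 CpG, the 10 not called 13.5 and the 2 lower ones 11.5, with a median of 7 over all 32851 RefSeq windows. Counting the peak with the largest change in WT instead gave 14 higher members with a median of 4.5 CpG and 8 not called with 14.5. Il1rap, with 33 CpG, and Il3ra, with 35, were exceptions that rose. A GC box stood in 3 of the 12 higher windows, 7 of the 10 not called and 35.7% of all windows. An ETS core stood in 6 of the 12 and 3 of the 10, against 35.4% of all windows, and a RUNX match in 4 of the 12 and 2 of the 10, against 16.8%. AP-1 matches stood in 2 of the 12 and 1 of the 10, against 7.81%, and STAT matches in 2 and 1, against 8.3%. A match is a run of letters and not a bound site.

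**Figure D4:**
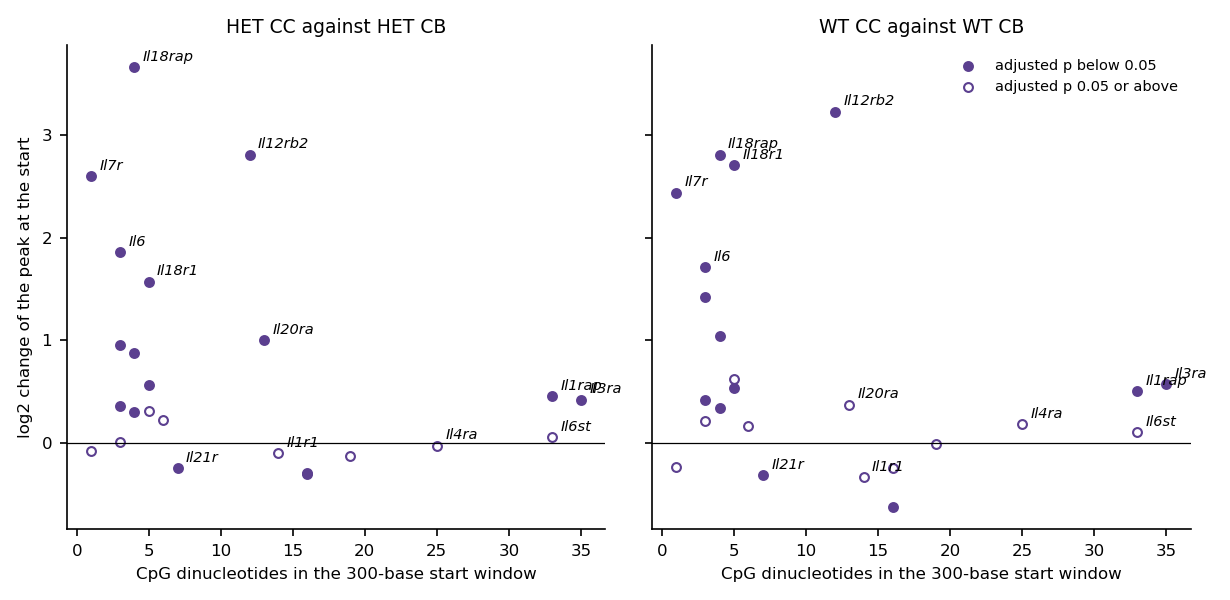
The log2 change of the peak at the start of 24 interleukin genes, HET CC against HET CB on the left and WT CC against WT CB on the right, by the number of CpG dinucleotides in the 300-base RefSeq start window. Changes above 1 in WT lie at windows with 12 CpG or fewer, while Il4ra and Il6st, with 25 and 33 CpG, lie near 0.

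The study's genotype question is how HET cells differ from WT cells of the same label. In CC, 3 interleukin loci were higher and 3 lower in HET, 10.2% of the 59 with 6.66% of all loci called, 3.24% higher and 3.42% lower. The decoy receptor Il1r2 had 57.7, 73.2, 68.5 and 73.6 CPM in HET CC, against 50.8, 54.3, 53.1 and 51.3 CPM in WT CC. All 4 HET libraries stood above all 4 WT libraries, and the locus was 1.31-fold higher (log2 0.39, SE 0.0823, adjusted p = 0.00443). Il1r1, at 95.4, 92.5, 82.6 and 89.1 CPM in HET CC against 78.6, 60.9, 70.8 and 74.3 CPM in WT CC, was 1.26-fold higher without overlap (log2 0.34, SE 0.0695, adjusted p = 0.00323). Both calls were kept when any 1 of the 8 CC libraries was left out, with adjusted p up to 0.0246 at Il1r1 and 0.0298 at Il1r2. Both loci were lower in CC than in CB, and the mean of HET CC lay between those of WT CC and of both CB groups.

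Il10 was higher in HET CC by 0.30 on the log2 scale (SE 0.0901, adjusted p = 0.0362), with overlapping libraries, and 8 of its 9 peaks had a log2 change above 0. Il33, an alarmin of the IL-1 family, fell by 0.56 (SE 0.162, adjusted p = 0.0301). Il12rb2 fell by 0.45 (SE 0.134, adjusted p = 0.036), and Il2ra fell by 0.17 (SE 0.0517, adjusted p = 0.0357). Il33 had 12.9, 9.59, 11 and 11.9 CPM in HET CC against 18.9, 16, 17.9 and 13.9 CPM in WT CC, and Il2ra had 175.8, 174.0, 154.6 and 160.0 CPM in HET CC against 192.7, 191.7, 190.6 and 175.9 CPM in WT CC. Neither pair of groups overlapped, whereas for Il12rb2 they did. The number of interleukin loci called ran from 2 to 9 over the 8 fits that each left out 1 library, with 3 without HET CC replicate 2 and 2 without HET CC replicate 4, WT CC replicate 1 or WT CC replicate 2. Each of these 4 calls was lost in the fit of only the 2 groups, with adjusted p of 0.0602 to 0.162. On counts thinned to the smallest library Il10, Il33 and Il2ra lost theirs (adjusted p = 0.0653, 0.0922 and 0.0612), and Il2ra also by total counts and with only peaks inside its span. Each of the 4 was also lost when certain single libraries were left out. Il10 lost it without HET CC replicate 2 or 4 or WT CC replicate 1 or 2, with adjusted p up to 0.207, and Il12rb2 without HET CC replicate 2 or 4 or WT CC replicate 1, 2 or 4, up to 0.142. Il33 lost it without HET CC replicate 2 or 4 or WT CC replicate 1, 2 or 3, up to 0.115, and Il2ra without HET CC replicate 3 or 4 or WT CC replicate 1, 2 or 3, up to 0.114. Il18r1 had a log2 change of -0.54 (SE 0.173, adjusted p = 0.0518) and did not pass.

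Marker loci differed between the same groups. Of the 11 T cell loci, 4 were lower and 0 higher in HET CC than in WT CC, and of the 5 germinal center loci, 2 were higher and 0 lower. Over all loci, 3.24% were higher and 3.42% lower. Summed levels were 435.3 to 515.1 CPM in HET CC and 500.7 to 622.2 in WT CC for T cell loci, and 643.6 to 725.8 in HET CC and 568.7 to 663.0 in WT CC for germinal center loci, with overlapping libraries in both lists. Of the other lists, myeloid loci had 1 higher and 0 lower, plasma cell loci 1 higher and 1 lower, naive or memory B cell loci 0 higher and 2 lower, and NK cell and B cell loci 0 called. The sums of naive or memory B cell loci did not overlap, at 628.5 to 687.9 CPM in HET CC and 723.6 to 799.6 in WT CC. Those of NK cell loci (253.9 to 258.3 in HET CC and 259.6 to 299.6 in WT CC) did not overlap either. Plasma cell sums were 395.2 to 402.0 in HET CC and 402.5 to 430.9 in WT CC, again without overlap, whereas myeloid and B cell sums overlapped. Every HET CC library was also deeper than every WT CC library. The part of other cells in the genotype results was not tested.

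**Figure D5:**
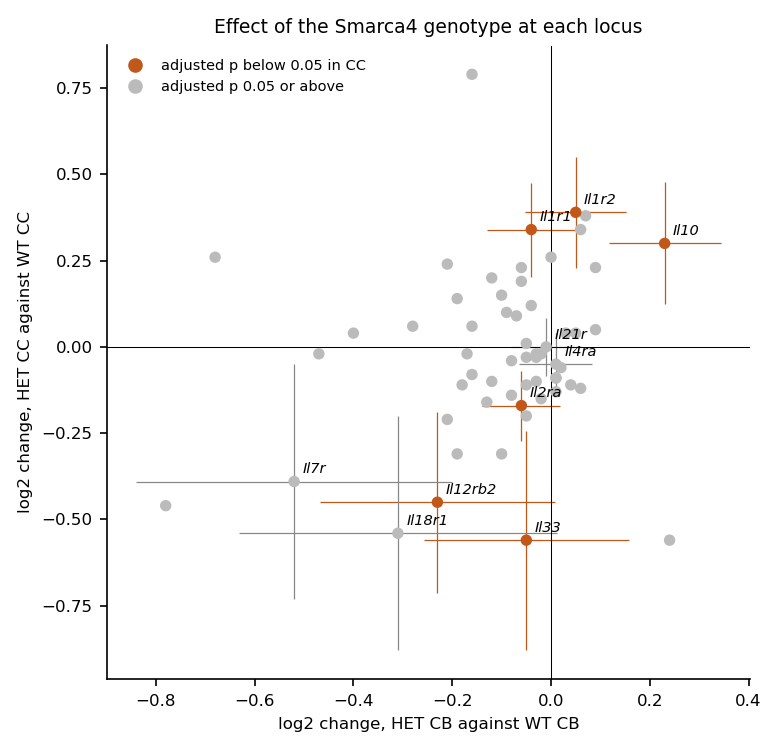
The log2 change of each interleukin locus in HET CC against WT CC (vertical axis) by its change in HET CB against WT CB (horizontal axis), with 95% intervals for 10 named loci and orange points for the 6 loci called in CC. Il1r1 and Il1r2 lie near 0 in CB and at 0.34 and 0.39 in CC, and Il10 lies above 0 on both axes.

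The peaks called between HET CC and WT CC numbered 4, of which 3 were higher in HET and 1 was lower, 1.22% of the 327 with 2.06% of all peaks called, 1.08% higher and 0.979% lower. The higher ones were a peak inside Il1r1, chr1:40262678-40263178, by 0.50 (SE 0.118, adjusted p = 0.0163), one next to the Il1r2 span by 0.88 (SE 0.248, adjusted p = 0.0439) and one 11583 bases from Il20rb by 0.53 (SE 0.149, adjusted p = 0.0419). The other, inside Il16 at chr7:83660384-83660884, fell by 0.43 (SE 0.107, adjusted p = 0.0238). The count ran from 0 to 11 when 1 library was left out: 11 without HET CC replicate 1, 9 without HET CC replicate 3, 0 without HET CC replicate 2 or 4, 1 without WT CC replicate 2 and 2 without WT CC replicate 3. The Il1r1 peak had 29.9, 32.9, 22.8 and 32.0 CPM in HET CC against 20.6, 19.4, 21.4 and 22.4 CPM in WT CC, so that the groups did not overlap. The Il20rb peak had 15.5, 19.5, 18.7 and 19.1 CPM in HET CC against 11.4, 13.2, 10.4 and 15.3 CPM in WT CC, without overlap, and at the Il1r2 peak the groups overlapped. The Il16 peak had 25.1, 23.2, 25.9 and 23.3 CPM in HET CC against 33.6, 34.7, 33.0 and 29.3 CPM in WT CC, also without overlap.

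In CB, 0 interleukin loci were called between HET and WT, with 0.551% of all loci called, 0.0265% higher and 0.524% lower, and 0 peaks, with 0.129% of all peaks called, 0.00243% higher and 0.127% lower. At an unadjusted p below 0.05 there were 10 loci, 16.9% against 9.76% of all loci, and 34 peaks, 10.4% against 7.9% of all peaks. DESeq2 called 1 locus and 2 peaks, counts given without its share over all loci or peaks. Il10 came closest, with 145.6, 144.6, 154.1 and 143.9 CPM in HET CB against 121.7, 127.3, 121.0 and 131.1 CPM in WT CB. Its groups did not overlap, and the change was 0.23 (SE 0.0577, adjusted p = 0.0509). Giving tied peaks to the nearest gene end instead of the shortest span moved that p to 0.0487, and over all alternatives it ranged from 0.000925 to 0.552. Of the 59 loci, 43 had a log2 change below 0 in HET CB, 72.9% against 50.3% of all loci, and the median was -0.05 against 0.00. Marker loci leaned the same way: 10 of 11 T cell loci, 6 of 7 myeloid loci, 4 of 6 NK cell loci, 4 of 5 naive or memory B cell loci, 3 of 4 plasma cell loci and all of the 4 B cell and 5 germinal center loci were below 0. Of these, Klrk1 of the NK cell list fell by 0.70 (adjusted p = 0.0346) and Fcer2a of the naive or memory B cell list fell by 0.28 (adjusted p = 0.00804), and the others did not pass. The summed levels of T cell loci (292.2 to 302.5 CPM in HET CB and 311.0 to 315.6 in WT CB), myeloid loci (213.7 to 220.2 in HET CB and 228.5 to 236.8 in WT CB) and naive or memory B cell loci (492.9 to 509.4 in HET CB and 517.0 to 537.0 in WT CB) did not overlap. Nor did those of B cell loci (703.8 to 712.5 in HET CB and 731.4 to 776.2 in WT CB). Germinal center loci (877.2 to 904.8 in HET CB and 905.1 to 944.3 in WT CB) did not overlap either, whereas NK cell and plasma cell sums did. The part of these lists in the interleukin values was not tested.

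Whether the HET effect itself differed between CC and CB was tested with an interaction. It was called at 1 interleukin locus, Il1r1, with 0.411% of all loci called, 0.352% higher and 0.0597% lower. It was called at 0 peaks, with 0.159% of all peaks called, 0.128% higher and 0.0316% lower. At an unadjusted p below 0.05 there were 33 interleukin peaks, 10.1% against 11.4% of all peaks. DESeq2 called 4 interleukin peaks, a count given without its share over all peaks. At Il1r1 the HET effect was 0.34 in CC and -0.04 in CB, a difference of 0.37 (SE 0.0834, adjusted p = 0.0286). The call was lost in 9 of 16 fits that each left out 1 library, with adjusted p up to 0.102, and on thinned counts. Those 9 were the fits without HET CC replicate 2 or 4, WT CC replicate 2 or 3, HET CB replicate 1, 3 or 4, and WT CB replicate 1 or 4. Il1r2 had a difference of 0.34 (SE 0.0975, adjusted p = 0.103) and Il10 of 0.07 (SE 0.107, adjusted p = 0.841), neither past the threshold.

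Loci of the signalling partners were taken as a list beside the receptors: JAK kinases, STAT factors, SOCS and PIAS inhibitors, shared receptor chains and IL-1 adaptors, of which 39 of 40 had a peak. In HET CC against HET CB, 13 were higher and 13 lower, 66.7% with 62.8% of all loci called, and in WT CC against WT CB, 12 were higher and 13 lower, 64.1% with 63.3% of all loci called, so both shares lay near the background. Stat4, the factor downstream of IL-12, rose by 0.59 in HET (SE 0.0541) and 0.58 in WT (SE 0.0585), and Jak2 fell by 0.23 in HET and by 0.42 in WT. Pias1, an inhibitor of STAT signalling, fell by 0.62 in HET (SE 0.0475) and by 0.75 in WT (SE 0.0524), while Stat3 and Stat6 passed in neither genotype. Myd88, Irak1 and Traf6, which relay IL-1 and IL-18 signals, were lower in both genotypes, with log2 changes of -0.39 to -0.27. The other IRAK genes did not fall with them. Irak3 rose by 0.16 in HET and 0.34 in WT, Irak4 rose by 0.31 in HET and did not pass in WT, and Irak2 passed in neither. In HET CC against WT CC, Csf2ra was higher by 0.16, and Socs3 fell by 0.24, Socs5 fell by 0.25 and Crlf2 fell by 0.17. In HET CB against WT CB, 0 of the 39 were called, with 0.551% of all loci called.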

How the data were processed

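Omni-ATAC libraries of 16 samples were analysed as a table of counts for 82188 peaks of 501 bp, deposited by the authors as unnormalised whole-number counts per peak and library on mm10. FastQC, BWA, deepTools and R 4.2.1 were used per the submitters' processing notes; the peak caller and the counting tool are not given in the sources used here. Peaks were assigned to RefSeq gene spans (at most 50 kb, ties to the shortest span) and summed per gene, giving 15075 loci. Loci and peaks were each tested with edgeR 4.0.16 (R 4.3.3, limma 3.58.1): TMM factors, filterByExpr, which removed 0 features, and a robust quasi-likelihood fit of 4 group means over all 16 libraries, with Benjamini-Hochberg adjustment over the whole table. CPM are counts scaled to a common total after TMM. The fit was tested on simulated data. Alternatives were DESeq2 1.42.0, other scalings and filters, thinning to 3494356 counts, other distances, a replicate block and leaving out each library; another tie rule and another choice of start window were added after seeing the data. Intervals cover 95%. Values were given for members called between genotypes or in the interaction and the 10 most significant in each direction between cell labels. Values or calls were also given for most members known from B cells or as T cell ligands, and values for some leading peaks. Il12b, Il15 and Il4ra peaks beyond these, the neighbour pairs, Il9, Il34 and the signalling partners named were chosen after their values were seen. The members and gene lists were chosen with earlier results of these data known. Start windows came from RefSeq (66 of 83 members matched). Some genes of the marker and partner lists are not reported here and were left out of their counts and sums.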

Additional observations from a re-analysis of the deposited data

Results flagged for a closer look

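In 5 of 164 groups of 4 libraries, 1 library lay far from the other 3 by Dixon's ratio at the 95% level, where chance gives about 1 in 20. These were Il10 in HET CB replicate 3, the highest at 154.1 CPM, Il1rl2 in WT CB replicate 4, the highest at 12.2 CPM, Il2ra in WT CC replicate 4, the lowest at 175.9 CPM, Il2rb in HET CC replicate 3, the highest at 53.7 CPM, and Il5ra in WT CC replicate 1, the highest at 116.7 CPM. The HET effect at Il1r1 differed between CC and CB by 0.37 on the log2 scale in the interaction test (edgeR, adjusted p = 0.0286).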

How the results depend on the processing

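DESeq2 called 1 interleukin locus in HET CB against WT CB, 10 in HET CC against WT CC and 2 in the interaction, and 2, 18 and 4 peaks in the same comparisons. All counts under alternatives are given without the share over all loci or peaks at the same setting. They are therefore not read against a background. Fits of only the 2 groups compared called 3 loci and 5 peaks in HET CB against WT CB, and 2 loci and 0 peaks in HET CC against WT CC. Scaling by total counts gave 1 locus in HET CB against WT CB and 1 peak in the interaction, and the other tie rule gave 1 locus in HET CB against WT CB. Thinning every library to 1 total left 117 peaks in HET CC against HET CB, 1 peak in HET CC against WT CC and 0 loci in the interaction. Leaving out 1 library gave 2 to 9 loci and 0 to 11 peaks in HET CC against WT CC, and 0 to 2 loci and 0 to 1 peaks in the interaction; it gave 41 to 44 loci and 171 to 179 peaks in HET CC against HET CB, 44 to 47 loci and 164 to 181 peaks in WT CC against WT CB, and 0 of either in HET CB against WT CB. With only peaks inside the gene span, the log2 change in WT CC against WT CB was 0.02 at Il2ra, 0.32 at Il4ra, 0.79 at Il10ra, 0.03 at Il12a and 0.42 at Il15, and in HET CC against HET CB it was -0.04 at Il10rb and 0.41 at Il15. With peaks within 10 kb it was -0.21 at Il17b in WT CC against WT CB, and -0.03 at Il10rb and 0.21 at Il15 in HET CC against HET CB. These signs are opposite to those over 50 kb; the alternatives sum fewer peaks, and the cause was not tested otherwise. Of 1311 values of called loci over all alternatives, 1238 kept direction and call and 73 lost the call, 5 of these with the opposite sign. Of 1828 values of uncalled loci, 29 gained a call, 5 of these with the opposite sign. The main fit did not pair libraries by replicate number. Deviations of same-numbered libraries correlated at -0.237 to -0.132 between HET CB and WT CB, against -0.223 to 0.216 for other numbers. HET CB replicates 1 and 3 correlated at 0.138 to 0.191 with WT CB replicates 2 and 4. HET CB replicates 2 and 4 correlated at 0.126 to 0.216 with WT CB replicates 1 and 3. The source of this pattern was not tested. Between HET CC and WT CC same-numbered libraries correlated at -0.023 to -0.007, against -0.041 to 0.047 for other numbers. Between WT CC and WT CB same-numbered libraries correlated at -0.001 to 0.054, against -0.074 to 0.043 for other numbers. Between HET CC and HET CB the values were 0.027 to 0.089, against -0.071 to 0.059. The library with the same number was the best match for 0, 0, 3 and 3 of 4. CC and CB libraries of 1 number may thus be weakly paired, and the labels do not say whether they share an origin. With the replicate number as a block, 2 peaks were called in HET CC against WT CC, Il12rb2 lost its call there (adjusted p = 0.0506) and Il15 gained one in WT CC against WT CB (0.0449). A block within each genotype also moved Il15 (0.0214) and Il5ra (0.064) in WT CC against WT CB and Il16 (0.0419) in HET CC against HET CB. Depth limits the CC groups most, and in them the low loci: 3 members had fewer than 10 counts in some library.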
